A study of Xenopus tropicalis with 3 samples.

Results

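Animal caps of the frog Xenopus tropicalis at the neurula stage (NF16) were compared with animal caps at the gastrula stage (NF10.5). The animal cap is the roof of the blastula and gastrula, which forms prospective epidermis and was dissected by hand. The comparison uses 2 of the 3 stage columns of the deposited expression table. FPKM is the number of fragments scaled by transcript length and by the size of the library. The values of a gene's transcripts were added up, and the 11349 genes with at least 1 FPKM at either stage were compared, of 17647 in the table (64.3%). Total RNA had been depleted of ribosomal RNA and made into directional paired-end libraries, with 3 biological replicates per stage, per the labels. No genotype, agent or other treatment is labelled for either stage. The number of caps per library, and whether caps were cultured between dissection and NF16, are not given in the sources used here.

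Each value is the authors' mean over the replicates, without its spread, so no error and no test can be given for any difference below. Differences are given on the scale log2(FPKM + 1), NF16 minus NF10.5, and the words higher and lower are kept for genes that differ by at least 1 on this scale. Adding 1 understates the change of weakly expressed genes. A gene that starts below 1 FPKM enters the comparison only if it reaches 1 FPKM at NF16, which favours higher over unchanged calls among such genes. The library depth is unknown. FPKM is relative within a stage, and in bulk tissue fewer cells of a type cannot be told apart from less RNA per cell.

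Gastrula ectoderm is a dividing, still uncommitted sheet that carries many transcripts laid down in the egg. By the neurula it is becoming the mucociliary epidermis of the tadpole, in which goblet cells secrete mucus, multiciliated cells move it, ionocytes transport ions and small secretory cells release further products. Basal cells that express the p63 gene lie beneath them, and similar epithelia line the airway of mammals.

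The labelled tissue was checked against epidermis markers, of which krt12, krt70 and dlx5 were not matched by name and all others stood above 1 FPKM at both stages. E-cadherin, cdh1, the main adhesion protein of mature epithelium, had 31.6 and 497 FPKM (log2 3.93) in order of stage. Adhesion gene epcam was already high, at 977 and 1156 FPKM, and so was the Grainyhead-like factor grhl3, which drives barrier formation, at 325 and 400.0 FPKM. Markers of other tissues were also read. Of 31 mesoderm and muscle markers, 18 reached 1 FPKM and 12 of these were higher, taking their share of the summed FPKM from 0.00411 to 0.0550%. These included the heart and pharynx factor nkx2-5, with 0.0867 and 96.5 FPKM, and the muscle light chain mylpf, with 0.113 and 39.6 FPKM, both called higher. Of the troponins, subunits of the contractile apparatus of muscle, tnnt3 was higher, at 0.727 and 12.5 FPKM (log2 2.97), as were tnnc1, tnnc2, tnni1 and tnni2, which reached 3.11, 3.62, 4.79 and 9.09 FPKM. The troponins tnnt1 and tnnt2 and the light chain myl3 were listed at 0 at both stages. The endoderm list holds foxa1, which also marks small secretory cells, and vgll1, a Hippo cofactor. Endoderm markers took 0.0278 and 0.0799%, although 4 were higher and 6 lower of 14 compared. Neural markers took 0.194 and 0.0475%, although 7 were higher and 4 lower of 16. For these 2 lists the share, which abundant members set, and the counts thus differ in direction. Myeloid and blood markers took 0.00226 and 0.00141%, with 0 higher and 1 lower of 3. The part of other cell types in the results below was not tested.

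Over the 11349 genes, 21.7% (2466) were called higher and 40.4% (4586) lower. The median gene differed by -0.65. These shares are the background for every list below. The genes that were higher, though fewer, held 9.04% of the summed FPKM at NF10.5 and 51.0% at NF16, whereas the genes that were lower held 59.4% and 16.5%. The calling rule fixes the direction of both changes, but not their size. The largest steps were mostly increases, since 179 genes were higher and 15 lower by a log2 of at least 5. This depended on the cutoff, with 759 higher and 357 lower at 3 or more, but 1330 higher and 1672 lower at 2 or more. Genes between 20 and 100 FPKM in the higher column were called lower more often, in 50.02% of cases, than those between 1 and 5 FPKM, in 18.4%. Just inside the rule lay trappc5, a vesicle tethering subunit (7.87 and 16.7 FPKM, log2 1.0), and cops5, of the signalosome (63.5 and 31.2 FPKM, log2 -1.0). Just outside, with differences that round to the same value, lay flrt3, a membrane adhesion protein (15.5 and 31.9 FPKM, log2 1.0), and atrn, or attractin (30.5 and 14.8 FPKM, log2 -1.0).

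The split between higher and lower depends on how the columns are scaled. Higher genes were 34.97% of the calls as deposited, 38.1% with TPM, 43.8% with quantile normalization and 57.0% with median-of-ratios scaling over the genes compared. The same scaling over all genes above 0 gave 47.9%, and the narrower form, adopted after the output of the wider was seen, is quoted for lists. It moved the median of all genes by 0.66 and quantile normalization by 0.36. List medians below are therefore to be read against the -0.65 of all genes, and where such a scaling turns the majority of a list from lower to higher, that is stated. Median-of-ratios scaling over the genes compared also took the call from 13 named genes, and not every such gene is marked below.

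**Figure D1:**
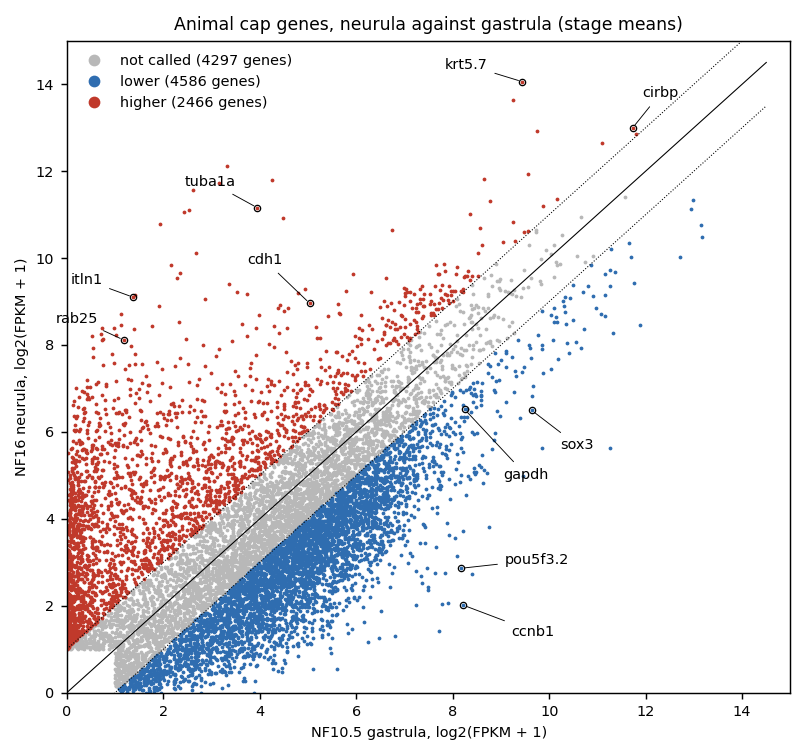
Each point is a gene, with log2(FPKM + 1) at NF10.5 on the x axis and at NF16 on the y axis (stage means). The solid line marks equal values and the dotted lines the rule of a log2 difference of 1. Above it are 2466 higher genes, many near the left edge, and below it 4586 lower genes in a dense band of middling expression.

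Genes with 100 FPKM or more in the higher column were called higher in 28.2% of cases and lower in 39.7%. Among all genes compared these shares were 21.7 and 40.4%, so being called was not particular to abundant genes. At NF10.5, 7 of the 10 genes with the highest FPKM had no symbol in the table, and all 7 were lower at NF16, for example LOC101731852 with 9244 and 1435 FPKM (log2 -2.69) and LOC108646289 with 9004 and 1725 FPKM (log2 -2.38). With median-of-ratios scaling another of the 7 was at -0.90 and so not called. At NF16 the list was led by the keratin krt5.7, an intermediate filament protein, at 17079 FPKM, and another keratin listed as krt, at 12721 FPKM. The elongation factor eef1a1o and the cold-inducible RNA binding protein cirbp were among the 10 most abundant at both stages, with 3567 and 7373 FPKM and 3396 and 8174 FPKM. The cytoplasmic actin actg1 went from 863 to 7748 FPKM (log2 3.16). An unnamed gene, LOC100493464, had 8.94 and 4468 FPKM (log2 8.81), and LOC100497157 had 18.1 and 3572 FPKM (log2 7.55).

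As a share of all FPKM, keratins and vimentin went from 0.339 to 6.47%, which was more than any other list took at NF16. Cytoplasmic ribosomal proteins took 1.94 and 6.02%, and actin, myosin and their regulators 0.909 and 3.1%. Mucus lectins, mucins and other goblet genes had the largest ratio of shares among the lists, from 0.00609 to 0.439%. Shares of cyclins (0.930 and 0.217%), core histones (2.64 and 1.37%) and replication genes (0.573 and 0.145%) were smaller at NF16. Keratin, histone and tubulin copies are similar in sequence, so the authors' assignment of reads among single members is uncertain.

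**Figure D2:**
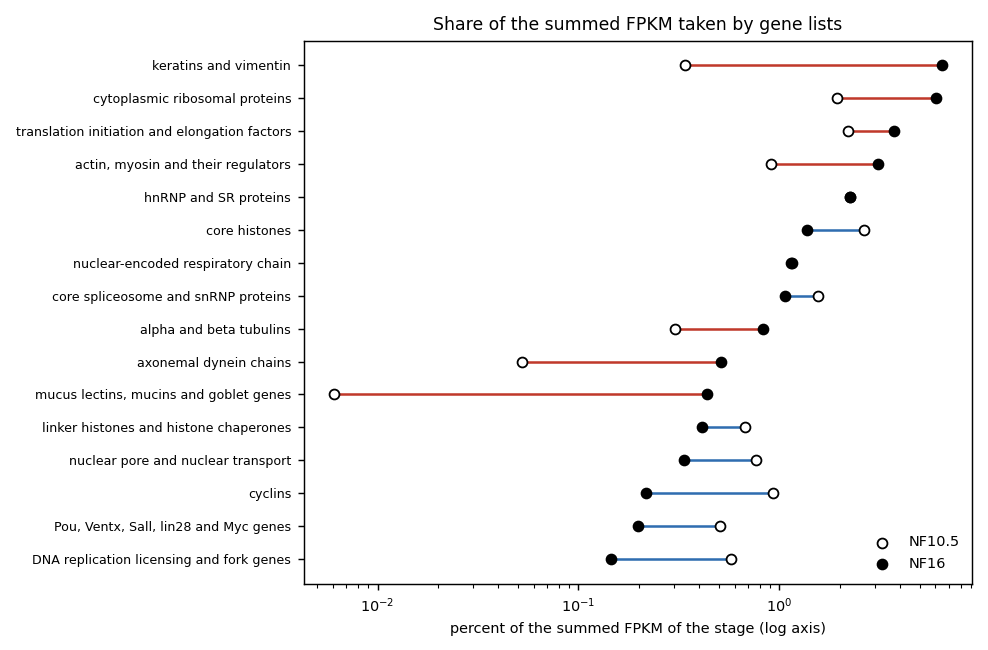
The x axis gives the percent of a stage's summed FPKM held by each gene list, on a log axis, with open circles for NF10.5 and filled circles for NF16. Red lines join lists with a larger share at NF16, led by keratins and vimentin, and blue lines those with a smaller share. The hnRNP and respiratory chain lists have nearly the same share at both stages.

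Among 80 glycosyltransferases and sulfotransferases, which attach and modify sugar chains, 29 were higher and 21 lower (median 0.25), and 33 more of the list were below 1 FPKM. The galactosyltransferase b3galt2 went from 2.18 to 119.7 FPKM (log2 5.25), the branching enzyme gcnt4 from 0.893 to 55.4 FPKM (log2 4.90), and the sulfotransferase chst4 from 1.66 to 55.3 FPKM (log2 4.40). The enzyme galnt1, which starts mucin type O-glycans, had 0.593 and 25.6 FPKM (log2 4.06). In contrast b4galt7, which builds the linker of proteoglycans, had 98.4 and 13.5 FPKM (log2 -2.78), and papss1, which makes the sulfate donor, 123 and 22.1 FPKM (log2 -2.43).

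Vesicle transport genes were called in both directions. Of 42 Rab GTPases, the switches that direct vesicles, 11 were higher and 12 lower, a majority that turned to 18 higher and 9 lower with median-of-ratios scaling and to 15 and 12 with quantile normalization. As deposited 26.2% were higher, near the background share, and 28.6% lower, under it. The epithelial recycling Rab rab25 went from 1.25 to 276 FPKM (log2 6.94), and the granule Rabs rab3d and rab27a from 2.1 to 155 FPKM (log2 5.66) and from 7.94 to 238 FPKM (log2 4.74). Apical recycling gene rab11a had 24.7 and 159.9 FPKM (log2 2.65). Those with lower values included rab21, of early endosomes (34.6 and 3.85 FPKM, log2 -2.88), rab32 (24.6 and 3.07 FPKM, log2 -2.66) and the Golgi gene rab33b (61.3 and 10.7 FPKM, log2 -2.42). The granuphilin-type effectors of Rab27, sytl1, sytl2 and sytl5, had 0.570 and 141 FPKM, 22.7 and 164 FPKM and 0.247 and 46.9 FPKM, all higher at NF16. These effectors dock secretory granules beneath the plasma membrane. They belong to the list of SNAREs, synaptotagmins and granule genes, which had 14 higher and 14 lower of 44, and 17 and 8 with median-of-ratios scaling. On the same list chga, a granule core protein, was higher (2.19 and 134 FPKM, log2 5.40), and the membrane fusion genes stx11 (19.9 and 0.420 FPKM, log2 -3.88) and stx2 (19.2 and 1.21 FPKM, log2 -3.19) and the regulator stxbp3 (105.4 and 11.8 FPKM, log2 -3.05) were lower.

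Genes of the endoplasmic reticulum were called lower less often than all genes. In the list of translocon, signal peptidase and glycosylation subunits 6 of 26 were higher, near the background share, and 3 lower, against 13 and 0 with median-of-ratios scaling. The channel subunits sec61a1, sec61g and sec61b had 127 and 586 FPKM (log2 2.19), 158 and 502 FPKM (log2 1.66) and 205 and 452 FPKM (log2 1.14). The lectin chaperones calr and canx, which fold glycoproteins, stood at 368 and 1106 FPKM and at 223 and 524 FPKM, both called higher. Disulfide isomerase agr3, a relative of the mucin folding enzyme agr2, had 0.253 and 21.9 FPKM (log2 4.19), whereas the chaperone hyou1 had 52.1 and 12.8 FPKM (log2 -1.95) and the prolyl isomerase fkbp14 212 and 26.3 FPKM (log2 -2.97). Folding and stress genes as a list had 10 higher and 10 lower of 46, against 16 and 7 with median-of-ratios scaling. Their higher count as deposited, 21.7%, was the background share. COPII, COPI and Golgi trafficking genes had 5 higher and 9 lower of 54, turning to 10 and 8 with TPM, 13 and 3 with quantile normalization and 20 and 2 with median-of-ratios scaling.

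Of 123 measured proteases and inhibitors 58 reached 1 FPKM, with 20 higher and 15 lower, against 27 and 8 with median-of-ratios scaling. The calpains, calcium dependent proteases, moved apart: capn13, capn8 and capn9 had 0.750 and 136 FPKM, 14.7 and 409.6 FPKM and 34.8 and 338 FPKM, all higher, while capn15 and capn10 had 24.1 and 2.65 FPKM and 6.37 and 0.587 FPKM, both lower. In mammals, capn8 and capn9 are known from mucus cells of the stomach. The Kunitz type inhibitor spint2, which restrains serine proteases of epithelia, was abundant and not called, at 233 and 225 FPKM. The lysosomal cathepsin ctsd had 90.5 and 8.37 FPKM (log2 -3.29).

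Genes of cell junctions were higher more often than the background. Among 22 tight junction genes 10 were higher and 4 lower, with claudins, the strands that seal neighbouring cells, in both directions. Another 14 of this list were below 1 FPKM. Its share of the summed FPKM, which abundant members set, was slightly smaller at NF16, at 0.535 and 0.493%. Genes cldn1 and cldn4 had 17.3 and 261 FPKM (log2 3.84) and 268 and 798 FPKM (log2 1.57), whereas cldn6.1 had 1363 and 225 FPKM (log2 -2.59) and its near copy cldn6.2 686 and 548 FPKM (log2 -0.32). The junction adaptor cgnl1 had 132 and 23.5 FPKM (log2 -2.44). Of desmosome, plakin and envelope genes 7 of 11 were higher and 2 lower, with 4 more below 1 FPKM. The desmosomal cadherin dsg2 had 13.6 and 84.6 FPKM (log2 2.55), its partner plakoglobin, jup, 109 and 443 FPKM (log2 2.02), and perp, a desmosome protein controlled by p63 in mammals, 61.8 and 295 FPKM (log2 2.24).

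Integrin, laminin and basement membrane genes had 15 of 28 higher and 1 lower (median 1.31), with 22 more below 1 FPKM. The laminin chain lamb1 went from 3.81 to 80.5 FPKM (log2 4.08), and the laminin receptors itga3 and itgb4, of which itgb4 belongs to the hemidesmosome, from 1.39 to 32.4 FPKM (log2 3.81) and from 0.467 to 13.1 FPKM (log2 3.27). The common beta chain itgb1 was not called, at 157 and 152 FPKM. The matrix glycoprotein sparc had 2.64 and 85.0 FPKM (log2 4.56) and the basement membrane collagen col18a1 22.9 and 79.7 FPKM (log2 1.76), while col4a5 had 7.73 and 2.2 FPKM (log2 -1.45). Fibrillar and other collagens had 11 of 17 higher and 0 lower, with 20 more below 1 FPKM, but together they made up only 0.0134% of the FPKM at NF16. Of 19 gap junction genes only 5 reached 1 FPKM at either stage, a filter that favours higher calls. Of these 4 were higher, among them the connexins gjb1 (0.333 and 29.9 FPKM, log2 4.54) and gjb2 (1.69 and 10.9 FPKM, log2 2.15). The gene panx1 was lower (37.3 and 6.83 FPKM, log2 -2.29).

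Actin, myosin and regulator genes had 27 of 67 higher and 14 lower, with 27 more below 1 FPKM. Both cytoplasmic actins were among the abundant genes that were higher, and besides actg1, actb had 436 and 2533 FPKM (log2 2.53) and the myosin light chain myl6 228 and 829 FPKM (log2 1.86). The actin severing protein scin had 0.233 and 52.8 FPKM (log2 5.45), the microvillus regulator eps8l1 4.24 and 104.8 FPKM (log2 4.34), and the secretory vesicle motor myo5c 1.18 and 25.1 FPKM (log2 3.58). Lower members included myo1c (102 and 9.57 FPKM, log2 -3.29), the profilin pfn2 (136 and 12.3 FPKM, log2 -3.37) and the small GTPase rhou (154 and 20.5 FPKM, log2 -2.85). This list also holds the muscle genes actc1 and myl1 (0.647 and 50.2 FPKM, and 1.37 and 36.7 FPKM), which belong to the mesoderm and muscle markers above as well.

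Septins, filament forming GTPases, had 3 of 9 higher and 3 lower, with septin5 and septin8 at 0.267 and 14.4 FPKM and 8.17 and 75.4 FPKM, and septin6 and septin11 at 32.4 and 6.32 FPKM and 45.6 and 8.92 FPKM. Among the linkers of membrane to actin, ezrin, ezr, had 8.03 and 38.1 FPKM (log2 2.11) and radixin, rdx, 26.9 and 8.35 FPKM (log2 -1.58). The related adaptors slc9a3r2 and slc9a3r1, which bind ezrin, likewise went apart, with 4.96 and 50.03 FPKM (log2 3.1) and 88.7 and 13.9 FPKM (log2 -2.59). Epithelial polarity genes as a list had 4 higher and 13 lower of 29, which turned to 8 higher and 3 lower with median-of-ratios scaling. As deposited 44.8% were lower, near the background share. The apical kinase prkcz had 3.27 and 30.7 FPKM (log2 2.89), whereas pard3 and llgl1, which mark apical junctions and the basolateral side, had 32.9 and 8.93 FPKM (log2 -1.77) and 61.8 and 15.5 FPKM (log2 -1.93).

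Motile cilia are built from tubulin that dedicated enzymes modify. Of 14 tubulin genes 8 were higher and 2 lower. Alpha tubulin tuba1a went from 14.4 to 2287 FPKM (log2 7.22) and tuba4b from 138 to 512 FPKM (log2 1.88), whereas tuba4 and tuba3e had 241 and 11.4 FPKM (log2 -4.29) and 148 and 25.6 FPKM (log2 -2.49), and the beta tubulin tubb was not called, at 366 and 464 FPKM. The acetyltransferase atat1, which modifies the inside of stable microtubules, had 0.183 and 18.5 FPKM (log2 4.04). The deglutamylases agtpbp1 and agbl2, which trim glutamate chains from tubulin, had 7.39 and 38.7 FPKM (log2 2.24) and 5.02 and 25.1 FPKM (log2 2.11), and the tyrosine ligase ttl 10.6 and 2.71 FPKM (log2 -1.65).

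Of 19 axonemal dynein chains compared 17 were higher and 0 lower. The inner arm heavy chains dnah7, dnah1, dnah6 and dnah3 had 0.190 and 54.9 FPKM, 0.133 and 39.4 FPKM, 0.130 and 37.7 FPKM and 0.0367 and 22.4 FPKM, in that order. All of these were below 1 FPKM at NF10.5. The light chains dynll1 and dynlrb2, which also serve cytoplasmic dynein, started higher, at 105.3 and 1591 FPKM and 22.3 and 228 FPKM. The assembly factors ruvbl1 and ruvbl2, shared with chromatin complexes, had 103 and 264 FPKM (log2 1.35) and 108 and 283 FPKM (log2 1.38). Of 8 ciliary kinesins 3 were higher and 1 lower, with the transport motor kif3a at 14.6 and 41.5 FPKM (log2 1.45).

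Of 48 deuterosome and centriole genes compared, 10 were higher and 13 lower, which turned to 15 and 14 with TPM, 20 and 12 with quantile normalization and 23 and 11 with median-of-ratios scaling. As deposited 20.8% were higher, near the background share, and 27.1% lower, under it. The centrin cetn4, the centriole gene poc1a and the cartwheel linked cep135 had 18.5 and 347 FPKM (log2 4.15), 3.42 and 38.5 FPKM (log2 3.16) and 7.72 and 43.8 FPKM (log2 2.36). Lower members of the list included spindle genes. The augmin subunits haus4, haus6 and haus8, which branch spindle microtubules, had 34.0 and 4.13 FPKM (log2 -2.77), 29.2 and 3.77 FPKM (log2 -2.66) and 49.0 and 3.16 FPKM (log2 -3.59). The spindle pole protein cep192 had 85.4 and 9.85 FPKM (log2 -2.99) and the gamma-tubulin complex gene tubgcp4 33.9 and 2.79 FPKM (log2 -3.2). Kinase gene nek2, which frees paired centrioles in mitosis, was higher, at 94.5 and 515 FPKM (log2 2.43).

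Of 187 measured pumps, channels and aquaporins 73 reached 1 FPKM, with 23 higher and 30 lower, a majority that turned to 28 higher and 16 lower with median-of-ratios scaling. As deposited 41.1% were lower, near the background share of 40.4%. The voltage gated sodium channel subunit scn3b had 0.197 and 21.5 FPKM (log2 4.23), and the inward rectifier kcnj2 0.0867 and 32.1 FPKM (log2 4.93). The proton and potassium pump atp12a was high at both stages, at 187 and 409.5 FPKM (log2 1.13). The calcium channel trpv4 had 33.0 and 1.69 FPKM (log2 -3.66) and the leak channel kcnk13 18.7 and 1.23 FPKM (log2 -3.14).

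V-ATPase genes, of the proton pump that acidifies vesicles, had 7 higher and 3 lower of 18. Subunits atp6v1c2 and atp6v0d2, forms restricted to specialised epithelia in mammals, had 0.260 and 75.5 FPKM and 5.2 and 89.4 FPKM, called higher. Their general counterparts atp6v1c1 and atp6v0d1 had 110.1 and 48.0 FPKM (log2 -1.18) and 51.0 and 22.2 FPKM (log2 -1.16), called lower as deposited and at -0.44 and -0.43, not called, with median-of-ratios scaling. Amino acid, sugar and metal carriers had 19 higher and 26 lower of 66, turning to 19 and 17 with quantile normalization and 26 and 12 with median-of-ratios scaling. Their lower count as deposited, 39.4%, was near the background share. The carriers slc7a7 and slc3a2, partners in amino acid exchange, had 2.77 and 114 FPKM (log2 4.94) and 1.1 and 86.1 FPKM (log2 5.37), the sugar carrier slc2a12 0.120 and 70.4 FPKM (log2 5.99) and the zinc carrier slc30a8 0.207 and 65.7 FPKM (log2 5.79). Lower carriers included the amino acid transporters slc38a8 (32.8 and 1.81 FPKM, log2 -3.59) and slc7a9 (14.8 and 0.790 FPKM, log2 -3.14). The lactate carriers slc16a1 and slc16a3 began at similar FPKM and parted, with 416 and 32.3 FPKM (log2 -3.65) for slc16a1 and 321 and 391.7 FPKM (log2 0.29) for slc16a3, which was not called.

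Of 49 replication licensing and fork genes 44 were lower and 0 higher (median -1.95), and 31 were lower with median-of-ratios scaling. The helicase subunit mcm3 went from 89.3 to 7.26 FPKM (log2 -3.45), the origin recognition subunit orc6 from 105.2 to 10.4 FPKM (log2 -3.22), and the licensing inhibitor geminin, gmnn, from 462 to 54.8 FPKM (log2 -3.05). The sliding clamp pcna had a smaller step, at 451 and 153 FPKM (log2 -1.55). Subunits and partners of the anaphase promoting complex, which marks cyclins for destruction, were lower in 14 of 17 cases. The 1 exception that was higher, cdc20b, acts in multiciliated cells and had 0.340 and 44.5 FPKM, while cdc20 had 482 and 88.9 FPKM (log2 -2.43).

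Kinetochore, spindle and checkpoint genes were lower in 35 of 45 cases, mitotic kinesins in 11 of 13, and condensin and cohesin genes in 15 of 21. With median-of-ratios scaling these counts were 21, 3 and 6. Separase, espl1, which cuts cohesin, had 84.7 and 5.21 FPKM (log2 -3.79), and the condensin subunit ncapd2 241 and 29.4 FPKM (log2 -3.0). The cohesin ring subunits smc1a and rad21, which also shape interphase chromatin, were not called, at 151 and 127 FPKM and 179.6 and 93.8 FPKM. DNA repair genes were lower in 37 of 57 cases (23 with median-of-ratios scaling), including the uracil glycosylase ung (41.0 and 2.15 FPKM, log2 -3.74) and the mismatch factor pms2 (22.7 and 0.950 FPKM, log2 -3.60), whereas the poly(ADP-ribose) polymerase parp1 was higher (46.9 and 116 FPKM, log2 1.29).

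Genes that restrain division were mostly not called. Of 15 CDK inhibitors and exit genes 10 were not called, 2 were higher and 3 lower, which turned to 4 and 2 with quantile normalization and 8 and 2 with median-of-ratios scaling. The frog CDK inhibitor cdknx had 86.9 and 112 FPKM and the antiproliferative btg1 421 and 461 FPKM, neither called. The atypical cyclin ccng2, tied to cell cycle exit, had 15.2 and 48.6 FPKM (log2 1.61), and the inhibitor cdkn2b 33.7 and 2.18 FPKM (log2 -3.45).

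Of 50 nuclear pore and transport genes 33 were lower and 0 higher, counts that were 17 and 1 with median-of-ratios scaling. The Ran exchange factor rcc1 had 451 and 47.7 FPKM (log2 -3.21) and the tRNA exporter xpot 100.8 and 12 FPKM (log2 -2.97). Lamin and envelope genes had 5 higher and 5 lower of 15. The nesprins syne1 and syne3, linkers between nucleus and cytoskeleton, had 0.547 and 48.0 FPKM (log2 4.98) and 0.163 and 26.3 FPKM (log2 4.55). Lamin lmnb3, the main lamin of the frog egg, had 67.5 and 9.74 FPKM (log2 -2.67), and lmnb1 was not called, at 497 and 271 FPKM (log2 -0.87).

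DNA methylation, Polycomb and histone modifying genes had 3 higher and 22 lower of 48, and 6 and 9 with median-of-ratios scaling. As deposited this was near the background for lower genes, but under it for higher genes (6.25% against 21.7%). The maintenance methyltransferase dnmt1 went from 88.5 to 8.66 FPKM (log2 -3.21) and its recruiter uhrf1 from 214 to 26.0 FPKM (log2 -3.0). The dioxygenases tet2 and tet3, which oxidise methylcytosine, went from 0.0467 to 17.2 FPKM (log2 4.12) and from 1.58 to 24 FPKM (log2 3.28). The deacetylases hdac1 and hdac2 parted, with 307 and 297 FPKM (log2 -0.05) for hdac1, not called, and 59.5 and 9.11 FPKM (log2 -2.58) for hdac2, and so did their partners rbbp7 (129.9 and 122 FPKM, log2 -0.09, not called) and rbbp4 (96.1 and 19.96 FPKM, log2 -2.21). Variant histones h3f3a and h2afv, which are made outside of replication, were higher, at 256 and 603 FPKM (log2 1.23) and 15.2 and 54.3 FPKM (log2 1.77).

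Ribosome genes of the cytoplasm and of mitochondria went in opposite directions. Of 66 cytoplasmic ribosomal proteins 61 were higher, with a median of 1.61. Of 67 mitochondrial ones 39 were lower and 2 higher, with a median of -1.36, and 24 and 3 with median-of-ratios scaling. Examples were mrps27 with 73.1 and 7.98 FPKM (log2 -3.04) and mrpl11 with 46.9 and 4.84 FPKM (log2 -3.04). Nucleolar genes that assemble ribosomes were lower in 42 of 66 cases, and tRNA synthetases in 15 of 34, the last near the background for lower genes. Neither list had a member called higher, against 21.7% of all genes. With median-of-ratios scaling nucleolar genes had 17 lower and 4 higher, and synthetases 5 and 1. Translation factors had 7 higher and 18 lower of 54, turning to 18 and 8 with median-of-ratios scaling. The elongation factor kinase eef2k, which restrains elongation, had 0.130 and 16.1 FPKM (log2 3.92), and eif4e3, a minor cap binding protein, 129 and 18.5 FPKM (log2 -2.74).

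Of 52 core spliceosome and snRNP genes 27 were lower and 0 higher, against 16 and 5 with median-of-ratios scaling. The abundant packaging proteins hnrnpa1 and hnrnpl were higher, at 606 and 1810.0 FPKM (log2 1.58) and 249 and 602 FPKM (log2 1.27), while the SR protein srsf7 had 1042 and 173 FPKM (log2 -2.58). In the hnRNP and SR list 3 were higher and 8 lower of 38, turning to 9 and 2 with median-of-ratios scaling. Among mRNA decay genes 7 were higher and 27 lower of 56, against 9 and 16 with median-of-ratios scaling. The AU-rich element binders zfp36 and zfp36l1 had 11.4 and 43.2 FPKM (log2 1.84) and 24.8 and 65.1 FPKM (log2 1.36), while the deadenylase pan2 and the oocyte decay adaptor btg4 had 29.9 and 3.09 FPKM (log2 -2.92) and 25.9 and 2.35 FPKM (log2 -3.01).

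Egg genes were lower more often than the background. Of 40 oocyte RNA binding and translation control genes 28 were lower and 1 higher, and germ plasm and piRNA genes were lower in 15 of 20 cases. The kinase gene mos, which arrests the egg, had 54.6 and 1.96 FPKM (log2 -4.23), and the oocyte RNA binding gene rbpms2 65.3 and 3.57 FPKM (log2 -3.86). The piRNA helicase mov10l1 had 52.0 and 2.72 FPKM (log2 -3.84) and the germ plasm gene velo1 21.3 and 1.74 FPKM (log2 -3.03). Egg coat genes of the zona pellucida type were lower in 6 of 6 cases, among them zp2 (80.6 and 10.6 FPKM, log2 -2.81) and zp4 (135 and 50.3 FPKM, log2 -1.41), a count that was 3 with median-of-ratios scaling. The fetal RNA binding protein igf2bp3, also on the oocyte list, was not called and had 120.5 and 227 FPKM (log2 0.91).

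**Figure D3:**
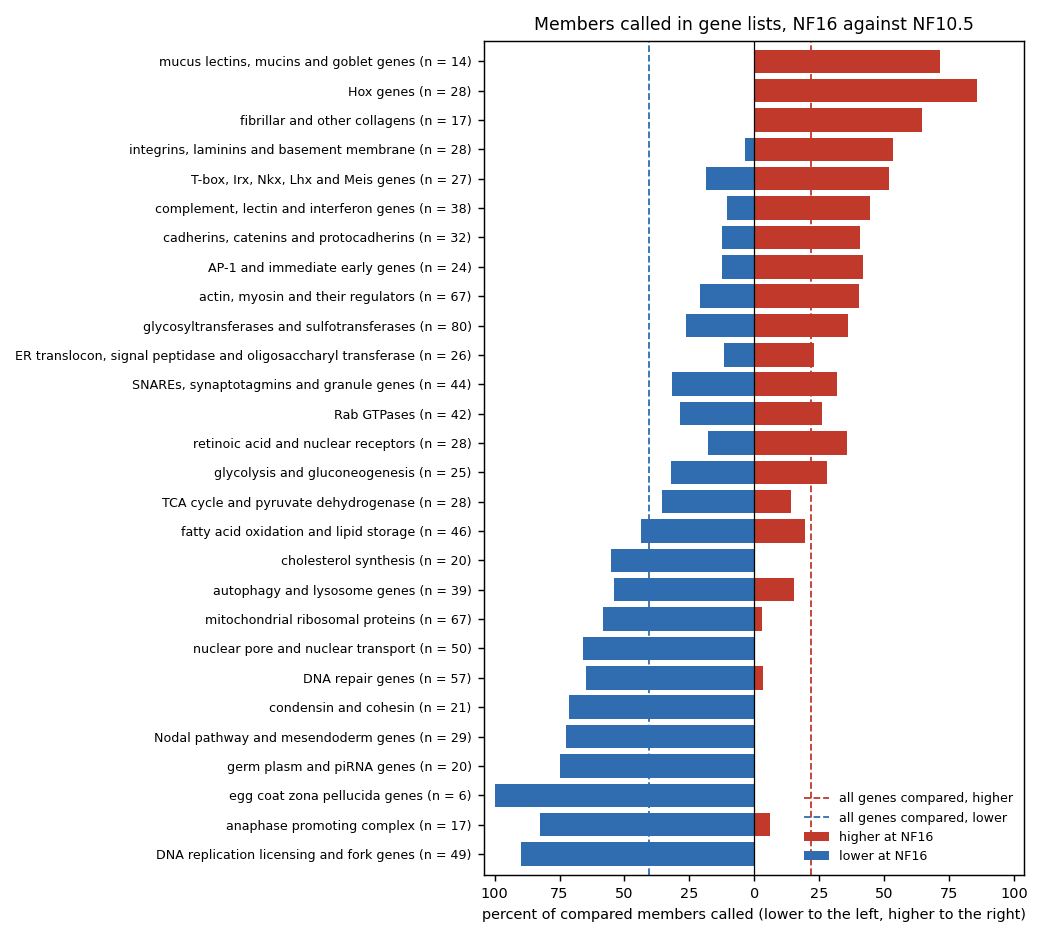
Bars give the percent of a list's compared members called higher (red, right) or lower (blue, left) at NF16, with the number compared beside each name. Dashed lines mark the background over all genes compared, 21.7% higher and 40.4% lower. Hox, goblet, collagen and basement membrane lists exceed the red line, and replication, anaphase promoting complex and egg coat lists exceed the blue line. Members below 1 FPKM at NF10.5 are compared only if they reach 1 FPKM at NF16, which favours red bars. With median-of-ratios scaling the Rab, glycolysis and citrate cycle lists turn from more lower to more higher members.

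Nodal signals induce mesoderm and endoderm in the gastrula. Of 29 Nodal pathway and mesendoderm genes 21 were lower and 0 higher (median -1.87), with 19 and 1 with median-of-ratios scaling. The Nodal co-receptor tdgf1.1 had 47.7 and 0.453 FPKM (log2 -5.07), and the mesendoderm factors mix1 and foxa4 21 and 0.387 FPKM (log2 -3.99) and 24.4 and 1.84 FPKM (log2 -3.16). Brachyury, listed as t, a mesoderm factor, was not called, at 30.1 and 24 FPKM (log2 -0.31). Oocyte ligands of the TGF-beta family, gdf9 and bmp15, had 55.8 and 1.59 FPKM (log2 -4.45) and 11.6 and 0.497 FPKM (log2 -3.07). In the BMP and TGF-beta list as a whole 16 were higher and 21 lower of 53, turning to 17 and 15 with quantile normalization and 21 and 11 with median-of-ratios scaling. Its lower count as deposited, 39.6%, was near the background share. BMP ligand bmp7.2 had 265 and 27.0 FPKM (log2 -3.25), and the BMP targets msx2 and id4 11.9 and 86.8 FPKM (log2 2.77) and 2.28 and 24.2 FPKM (log2 2.94).

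The Wnt receptor fzd7, abundant in the gastrula, went from 214 to 32.9 FPKM (log2 -2.66), while fzd6, a planar polarity receptor, went from 4.43 to 54.7 FPKM (log2 3.36) and fzd8 from 16.2 to 44.5 FPKM (log2 1.4). The ligands wnt11 and wnt4 parted likewise, with 55.6 and 7.05 FPKM (log2 -2.81) and 2.17 and 6.03 FPKM (log2 1.15). Among planar polarity proteins, which align cilia and hairs in the plane of a tissue, prickle1 had 117 and 10.7 FPKM (log2 -3.33), prickle3 1.23 and 16.6 FPKM (log2 2.98) and the atypical cadherin celsr1 21.6 and 59.2 FPKM (log2 1.41). Wnt ligands, receptors and antagonists had 11 higher and 12 lower of 40, and planar polarity genes 3 and 5 of 23. Both turned with quantile normalization, to 12 and 10 and to 7 and 5, and with median-of-ratios scaling, to 15 and 8 and to 10 and 3.

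Of 57 FGF and receptor tyrosine kinase genes 15 were higher, near the background share, and 12 lower, under the background share. With median-of-ratios scaling these counts were 24 and 7. The receptors erbb2 and egfr of the epidermal growth factor family had 1.93 and 67.5 FPKM (log2 4.55) and 0.470 and 20.6 FPKM (log2 3.88), and the hepatocyte growth factor receptor met and its ligand hgf 0.147 and 7.01 FPKM (log2 2.80) and 0.243 and 10.4 FPKM (log2 3.2). The receptor kit and its ligand kitlg were higher together, at 10.1 and 121 FPKM (log2 3.46) and 35.3 and 147 FPKM (log2 2.03). Receptor fgfr4 and ligand fgf2 were lower, at 123 and 30.6 FPKM (log2 -1.98) and 21.9 and 4.95 FPKM (log2 -1.94), and so was the growth factor receptor igf2r, at 25.1 and 4.80 FPKM (log2 -2.17). None of the 8 Eph receptors and ephrins compared was called, and 4 of them were higher with median-of-ratios scaling.

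Notch pathway and Hes genes had 9 higher and 6 lower of 38. The higher count, 23.7%, was near the background share, and the lower count, 15.8%, under it. Receptor notch2 went from 1.06 to 26.3 FPKM (log2 3.73) and the ligand modifying enzyme neurl1 from 2.34 to 32.8 FPKM (log2 3.34). The repressors of the Hes family, direct Notch targets in many tissues, were called in both directions. Of 13 compared genes with hes symbols, 5 were higher and 2 lower. These are 38.5 and 15.4%, against 21.7 and 40.4% of all genes. Genes hes8 and hes3.3 had 0.700 and 26.3 FPKM (log2 4.0) and 0.510 and 15.9 FPKM (log2 3.49), while hes7.1 and hes3.1 had 30.4 and 2.70 FPKM (log2 -3.09) and 49.2 and 11.5 FPKM (log2 -2.01), and hes1 was not called, at 49.1 and 79.7 FPKM. In the Hippo pathway, which restrains growth, the effectors wwtr1 and tead4 and the cofactor vgll1 had 8.46 and 36.8 FPKM (log2 2.00), 67.4 and 167 FPKM (log2 1.3) and 4.74 and 141 FPKM (log2 4.63). Its kinase stk3, scaffold sav1 and upstream gene nf2 had 68.9 and 13.4 FPKM (log2 -2.28), 52.0 and 14.2 FPKM (log2 -1.80) and 60.9 and 18.4 FPKM (log2 -1.68), while stk4, the relative of stk3, had 0.0400 and 5.11 FPKM (log2 2.55). The target gene cyr61 was higher, at 5.0 and 21.2 FPKM (log2 1.89). Counted together, Hedgehog and Hippo genes had 7 higher and 8 lower of 28, turning to 9 and 7 with quantile normalization and 10 and 4 with median-of-ratios scaling. As deposited 25% were higher, near the background share, and 28.6% lower, under it.

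Retinoic acid genes and nuclear receptors had 10 higher and 5 lower of 28, with 23 more below 1 FPKM. The retinoic acid enzymes aldh1a2 and rdh10 were lower, at 59.3 and 6.60 FPKM (log2 -2.99) and 82.1 and 8.84 FPKM (log2 -3.08). The receptor rarg was not called, at 89.2 and 100.7 FPKM. Among orphan nuclear receptors nr2f5 was higher, at 2.11 and 75.4 FPKM (log2 4.62), and the regulators of energy metabolism esrra and esrrg at 0.517 and 33.3 FPKM (log2 4.50) and 0.510 and 20.7 FPKM (log2 3.85). AP-1 and immediate early genes had 10 of 24 higher and 3 lower, with 7 more below 1 FPKM. Those higher included fos (7.33 and 37.0 FPKM, log2 2.19), jund (3.84 and 85.4 FPKM, log2 4.16) and klf6 (12.3 and 296 FPKM, log2 4.48).

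Hox genes, which set position along the body axis, had 24 of 28 compared members higher and 0 lower, with 6 more below 1 FPKM at both stages. Examples were hoxa7 (0.167 and 12.9 FPKM, log2 3.58), hoxb8 (0.237 and 10.9 FPKM, log2 3.27) and hoxa3 (0.237 and 8.23 FPKM, log2 2.90). The gene hoxd1 was already expressed in the gastrula and was not called, at 10.2 and 9.87 FPKM (log2 -0.05). Together the list held 0.00359% of the FPKM at NF10.5 and 0.0365% at NF16. Most compared members began below 1 FPKM and were compared only because they reached 1 FPKM at NF16, which favours higher calls.

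Other transcription factor families split by member. Of 27 T-box, Irx, Nkx, Lhx and Meis genes 14 were higher and 5 lower. Another 21 were below 1 FPKM at both stages and left out, which favours higher calls. Besides nkx2-5, given above and also on this list, those higher included nkx2-3 (0.580 and 72.7 FPKM, log2 5.54) and tbx3 (1.81 and 126 FPKM, log2 5.50), with lhx5, a LIM homeobox factor, lower (84.1 and 7.41 FPKM, log2 -3.34). Forkhead genes had 10 higher and 10 lower of 30. Within the epidermal Foxi group, foxi4.1 had 4.87 and 29.1 FPKM (log2 2.36) and foxi4.2 179 and 22.3 FPKM (log2 -2.95). Foxo1, which acts in quiescence and metabolism, had 1.49 and 15.6 FPKM (log2 2.73). The Pou factor pou2f3, known from chemosensory tuft cells and skin in mammals, had 3.91 and 53.0 FPKM (log2 3.46). Neural plate, crest and placode regulators had 23 of 44 higher and 11 lower, with 17 more below 1 FPKM. Among those called were gbx2.2 (2.13 and 41.5 FPKM, log2 3.76) and sox11 (209 and 49.1 FPKM, log2 -2.07). Zinc finger genes with znf, zbtb, zscan and zfp symbols numbered 119, of which 58 were lower and 11 higher, against 28 and 17 with median-of-ratios scaling.

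Glycolysis and gluconeogenesis genes had 7 higher and 8 lower of 25, turning to 9 and 4 with median-of-ratios scaling. Hexokinase hk1, which catalyses the opening step, went from 1.84 to 89.1 FPKM (log2 4.99), phosphofructokinase pfkp from 3.41 to 56.3 FPKM (log2 3.70), and the gluconeogenic phosphatase fbp1 from 11.3 to 357 FPKM (log2 4.86). Lower members included enzymes further along the pathway, with pgk1 at 139.7 and 16 FPKM (log2 -3.05), gapdh at 303 and 90.5 FPKM (log2 -1.73) and tpi1 at 225 and 64.1 FPKM (log2 -1.80). The early isomerase gpi was lower too, at 48.8 and 8.92 FPKM (log2 -2.33). Gene gapdh is often used as a constant reference, and with median-of-ratios scaling it stood at -0.99, not called.

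The list of citrate cycle genes also holds idh1, a cytosolic and peroxisomal enzyme and so outside the mitochondrial cycle, which had 9.16 and 67.1 FPKM (log2 2.75). The mitochondrial idh2 was not called, at 566 and 592 FPKM, and the malate dehydrogenase mdh2 had 65.9 and 5.64 FPKM (log2 -3.33). The list as a whole had 4 higher and 10 lower of 28, turning to 8 and 5 with median-of-ratios scaling. Nuclear genes of the respiratory chain had 3 higher and 15 lower of 81, turning to 16 and 9 with quantile normalization and 26 and 5 with median-of-ratios scaling. As deposited the other 63 were not called. Cytochrome c, cycs, and the succinate dehydrogenase subunit sdha were lower (656 and 276 FPKM (log2 -1.25), and 58.2 and 16.6 FPKM, log2 -1.75), while the ATP synthase subunit atp5j2 and uqcr10, of the cytochrome bc1 complex, were higher (21.3 and 77.9 FPKM (log2 1.82), and 39.0 and 97.0 FPKM, log2 1.29).

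Fatty acid oxidation and lipid storage genes had 9 higher and 20 lower of 46, against 12 and 13 with median-of-ratios scaling. As deposited both counts were near the background shares. The elongases elovl2, elovl1, elovl3 and elovl7, which lengthen fatty acids, had 0.167 and 94.8 FPKM (log2 6.36), 26.3 and 173 FPKM (log2 2.68), 37.4 and 180.0 FPKM (log2 2.24) and 186 and 518 FPKM (log2 1.47). The fatty acid importer of mitochondria cpt1a had 14.6 and 102 FPKM (log2 2.72). The lipid droplet coats plin2 and plin3 had 267 and 34.1 FPKM (log2 -2.93) and 72.1 and 4.98 FPKM (log2 -3.61), and the fatty acid synthase fasn 15.2 and 2.21 FPKM (log2 -2.34). Of 20 cholesterol synthesis genes 11 were lower and 0 higher, against 4 and 2 with median-of-ratios scaling. Nucleotide and one-carbon synthesis genes were lower in 17 of 38 cases (9 with median-of-ratios scaling), near the background share of 40.4%. Only 1 was higher (6 with median-of-ratios scaling), which as deposited is 2.63% against 21.7% of all genes. The thymidine kinase tk1 (129 and 19.4 FPKM, log2 -2.68) and the purine salvage enzyme hprt1 (116 and 12.8 FPKM, log2 -3.09) were among the lower ones.

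Antioxidant genes were called in both directions, with 10 higher and 14 lower of 46, which turned to 10 and 7 with quantile normalization and 15 and 5 with median-of-ratios scaling. Their higher count as deposited, 21.7%, was the background share. The catalytic subunit of glutathione synthesis, gclc, had 4.83 and 94.9 FPKM (log2 4.04) and its modifier gclm 132 and 60.2 FPKM (log2 -1.12). The secreted superoxide dismutase sod3 had 0.253 and 10.3 FPKM (log2 3.17) and the cytosolic sod1 48.2 and 11.1 FPKM (log2 -2.02). Chaperones and their partners had 9 higher and 28 lower of 67, turning to 15 and 14 with median-of-ratios scaling. As deposited the lower count was near the background share. Stress chaperones hsp70 and dnajb1 were higher, at 0.25 and 18.1 FPKM (log2 3.93) and 1.98 and 11.8 FPKM (log2 2.1), whereas the mitochondrial chaperonins hspd1 and hspe1 had 175 and 21.3 FPKM (log2 -2.98) and 129.5 and 16.5 FPKM (log2 -2.90), and stip1, which links heat shock proteins, 99.4 and 20.8 FPKM (log2 -2.20).

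Complement, lectin and interferon genes were higher more often than background, in 17 of 38 cases against 4 lower, with 41 more below 1 FPKM. The complement proteins c3 and c9 had 47.1 and 229 FPKM (log2 2.26) and 65.8 and 287 FPKM (log2 2.11), and the galectin lgals3 48.2 and 490.5 FPKM (log2 3.32). Lysosome and autophagy genes were lower in 21 of 39 cases (11 with median-of-ratios scaling). Inside that list the membrane tags of autophagosomes were called in both directions. Genes map1lc3b and gabarapl1 had 0.440 and 13.6 FPKM (log2 3.34) and 0.0800 and 9.01 FPKM (log2 3.21), and map1lc3c 43 and 3.12 FPKM (log2 -3.42). Proteasome subunits had 1 higher and 9 lower of 36, turning to 7 and 4 with median-of-ratios scaling, among them the ATPase subunit psmc2 (6.68 and 40.8 FPKM, log2 2.44) and the activator psme3 (146 and 18.6 FPKM, log2 -2.91). Apoptosis genes had 2 higher and 8 lower of 23, against 6 and 6 with median-of-ratios scaling. Of these bok went from 0.597 to 79.0 FPKM (log2 5.65), and the p53 ligase mdm2 from 193 to 39.6 FPKM (log2 -2.26).

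Pairs of related genes, in which the first is known as the form of the egg or early embryo or was taken as such here, were set side by side. Of 34 pairs 25 had both members in the table, and in 7 of them the early form was called lower and the other higher. Gene gmnc stands as the early form against mcidas and as the other form against gmnn, so the pairs are not independent. The other form can also belong to a cell type, as cdc20b acts in multiciliated cells, so a pair need not be a replacement of an egg form. The reverse was found in 0 pairs. As deposited, the early form was lower in 20 of the 25, beside 40.4% of all genes. Pairs were chosen, and some early forms assigned, with earlier results of these data known, so the direction of these counts tests nothing. Of the linker histones, the egg form h1foo made up 98.7% of the summed FPKM of the pair at NF10.5 and 12.6% at NF16, against h1f0, the form of resting cells. For the cadherins cdh3 (listed as LOC100485633) and cdh1 the early share went from 93.7 to 31.2%, for the ectoderm factors foxi2 and foxi1 from 78.2 to 5.67%, and for the coactivators gmnc and mcidas from 93.8 to 1.59%. With median-of-ratios scaling cdh3 was at -0.32 and so not called. For the Krüppel-like factors klf17 and klf5 the share went from 84.4 to 39.3%, with klf17 at 299 and 80.3 FPKM (log2 -1.88) and klf5 at 55.2 and 124 FPKM (log2 1.15). In the remaining pairs of this kind the same form was the more abundant at both stages. The share of the poly(A) binding protein pabpc1l against pabpc1 was small already at NF10.5, at 6.58%, and 0.342% at NF16, and that of cdc20 against cdc20b was 99.9 and 66.7%.

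As deposited, both forms were lower in 8 pairs, and in 5 the early form was lower while the other was not called. The survivin genes birc5.1 and birc5.2 were both lower, but the share of birc5.1 went from 59.2 to 11.1%. With median-of-ratios scaling birc5.2 was at -0.81, not called. The translation regulators patl2 and patl1 were both lower too, with the share of patl2 going from 48.2 to 12.1%, and patl1 at -0.60, not called, with median-of-ratios scaling. The A-type cyclins went the other way: the embryonic ccna1 had 323 and 125 FPKM (log2 -1.36) and ccna2 382 and 35.5 FPKM (log2 -3.39), so the share of ccna1 went from 45.8 to 77.9%. Gene ccna1 was at -0.61, not called, with median-of-ratios scaling. The cytoplasmic elongation factor pair was higher in both forms, with eef1a1o at 3567 and 7373 FPKM (log2 1.05) and eef1a1 at 2189.7 and 6458 FPKM (log2 1.56).

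**Figure D4:**
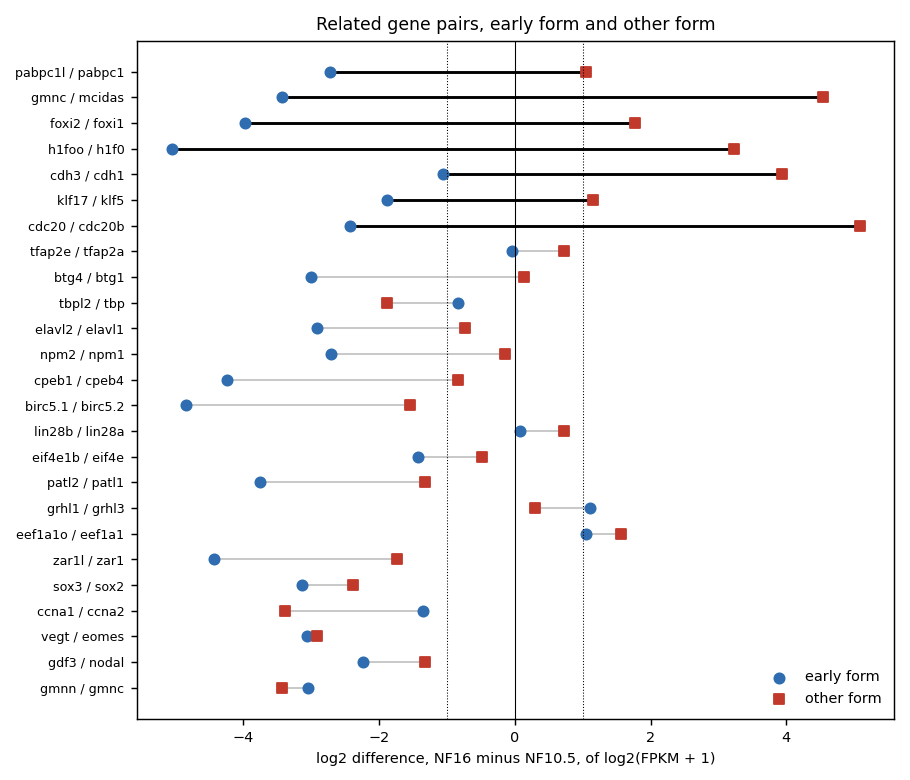
Each line is a pair of related genes and the x axis gives the log2 difference, NF16 minus NF10.5, of the early form (blue circle) and the other form (red square). Dotted lines mark the rule of 1. Black lines are the 7 pairs with the early form lower and the other higher, and no pair shows the reverse. Pairs were chosen with earlier results of these data known, so this contrast tests nothing. With median-of-ratios scaling cdh3 is not called.

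A survey of symbol stems, which does not rest on chosen lists, gave 105 families with at least 10 compared members, 2654 genes in all. As deposited, over 50% of the members were higher in 7 families and lower in 36. With median-of-ratios scaling this turned, and more families had over 50% of their members higher than lower. The hspa family, for example, went from 4 to 7 higher of 10, and the ttc family from 15 to 19 of 36. Peroxisome biogenesis genes, pex, were lower in 12 of 12 cases, substrate receptors of the cullin ligase, dcaf, in 10 of 11, tRNA methyltransferases, trmt, in 12 of 15, and Integrator subunits, ints, in 8 of 10. Deubiquitinases of the usp family numbered 40, with 27 lower and 3 higher. With median-of-ratios scaling these counts were 8, 8, 9, 3 and 15, in that order. The claudins (6 of 10) and spata genes, named for the testis (8 of 14), were mostly higher. Solute carriers had 67 higher and 63 lower of 193, and coiled-coil genes named ccdc had 44 and 25 of 92.

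**Figure D5:**
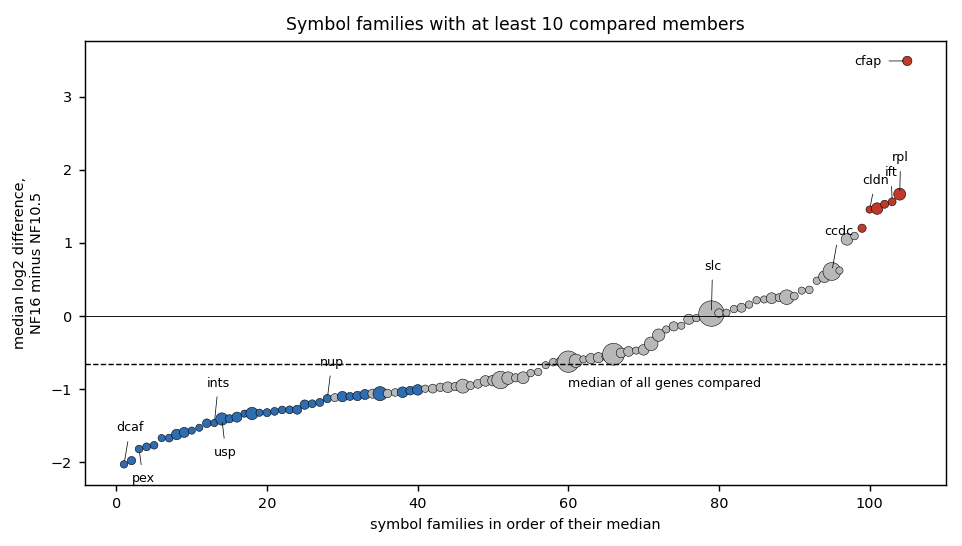
Families of genes that share a symbol stem are ordered along the x axis by their median log2 difference, NF16 minus NF10.5, on the y axis, and the area of a point grows with the number of compared members. Red marks families with over 50% of members higher, blue those with over 50% lower, and grey the rest. Values are as deposited, and with median-of-ratios scaling more families would be red than blue. The dashed line is the median of all genes compared, -0.65, and cfap stands alone at the top.

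Below 1 FPKM at NF10.5 and at 10 FPKM or more at NF16 were 436 genes, against 63 in the reverse direction. Besides those already named, the first group held crocc2, a ciliary rootlet relative (0.680 and 282 FPKM), gmpr2, a GMP reductase (0.920 and 222 FPKM), and ak7, an adenylate kinase of the axoneme (0.437 and 111 FPKM). Outside it, because they began above 1 FPKM, were 1 of the entries named msln, mesothelin (3.83 and 743 FPKM, log2 7.27), and fucolectin, a fucose binding lectin (2.74 and 473 FPKM, log2 6.98). Among the largest decreases, c3ar1, a complement receptor, had 176 and 6.32 FPKM (log2 -4.60), dctpp1, which clears dCTP, 178 and 4.09 FPKM (log2 -5.14), and lrwd1, a partner of the origin recognition complex, 197 and 5.71 FPKM (log2 -4.88).

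The sum over transcripts hides opposite changes inside some genes. Of 2345 genes with at least 2 transcripts that reached 5 FPKM at either stage, 124 (5.29%) had a transcript called higher and another called lower. As genes, 77 of the 124 were not called, against 37.9% of all genes compared. Opposite transcripts partly cancel in the sum, so the way these genes were picked favours no call. In tmpo, a lamina associated protein, the gene was at 228 and 128 FPKM (log2 -0.83), while 1 transcript went from 154 to 0.287 FPKM and another from 0 to 19.6. In cast, the inhibitor of calpains, 1 transcript went from 27.0 to 0.140 and another from 0 to 45.5 FPKM. In pcm1, a centriolar satellite protein used by ciliated cells, 1 transcript went from 15.5 to 0 and another from 0.0967 to 67.7 FPKM. These values rest on the authors' assignment of reads among overlapping transcripts, which cannot be checked from FPKM alone.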

How the data were processed

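The deposited table holds FPKM per RefSeq transcript in 1 column per stage, per the file headers, and per the labels it comes from total RNA with 3 biological replicates. The submitters' processing notes list STAR 2.4.2a and RSEM 1.3.0 but no settings. The genome build is not given in the sources used here. Divided by 0.01 and multiplied by 3, all values came out whole within 0.01, so columns are taken as the authors' means over replicates. The unit keeps no depth, and no interval, spread or test could be computed.

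FPKM of 35047 rows (35028 transcripts, 19 listed more than once, all kept) was summed over 17647 genes with Python 3.11.15, numpy 2.4.6 and pandas 2.3.3. Genes with at least 1 FPKM at either stage were compared on log2(FPKM + 1), and called at a difference of 1. NF24 was not used for calls. Gene lists, pairs and the comparison itself were chosen with earlier results of these data known, and list patterns that caught genes outside the intended family were corrected after values had been seen, so counts describe the lists and test nothing. Lists overlap, and shared members count in each.

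Named genes are the 15 with a symbol and the largest difference in each direction at 10 FPKM or more, the 10 most abundant per stage, up to 5 called members per list and direction at 5 FPKM or more with the 3 most abundant, both members of a pair, the genes nearest the threshold, and epidermis markers. The transcripts shown for opposite changes were chosen after their values were seen, as were the troponins other than tnnt3, and myl3. Gene names were matched to RefSeq genes (assembly UCB_Xtro_10.0) by gene identifier, by symbol or by transcript accession. In any of these ways 16594 names (94.0%) matched. Names alone were taken from it, for entries that the table holds as calendar dates (septins) or locus identifiers. The steps were tested on simulated data. Alternatives were TPM, quantile normalization, median-of-ratios scaling, other pseudocounts (0.1 and 5), other filters (none and 5 FPKM), the highest transcript of each gene and a 4-fold rule. A planned search for promoter motifs was not run, and sequences were not used here.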

Additional observations from a re-analysis of the deposited data

How the results depend on the processing

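The number of genes higher stayed within 1.5 times the 2466 reported, and the number lower within 1.5 times 4586, under TPM, quantile normalization, both other pseudocounts, both other filters and the highest transcript of each gene. With median-of-ratios scaling over the genes compared, 3456 were higher and 2605 lower. This scaling had first been run over all genes above 0, which gave 3036 and 3296, and was changed after its output was seen; the version used decides which direction holds more genes. Under the 4-fold rule 1330 were higher and 1672 lower. No called difference of a named gene changed sign under any of these. For lists, the median minus the median of all genes in the same setting was compared, without the 4-fold rule. None that differed by at least 1 changed sign, but this difference removes most of a shift shared by all genes. By counts, 19 of 90 lists turned their majority under a scaling, and 21 of 290 called named genes lost their call under a setting other than the 4-fold rule. Named genes were mostly picked for large differences, so the last count does not describe genes in general.

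No paired analysis was possible because the table holds 1 mean column per stage and no replicate columns. For the same reason no replicate was left out in turn, and no difference has an error. Depth is unknown, and so is the floor of detection.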
